A study of Mus musculus with 12 samples.

Results

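Interferon response genes are the set of 37 mouse genes described here, chosen by symbol and grouped by role into 4 Stat and Irf transcription factors, 21 antiviral effectors, 7 GTPases and 5 RNA sensors. Of the 37, 36 had an entry of their own among the 23174 entries of each expression table. Ifi47 stood only in an entry joined with the olfactory receptor gene Olfr56 and was left out of the counts. RNA was sequenced from mouse T-ALL (T cell acute lymphoblastic leukaemia), which arises from T cell progenitors. All 12 samples were of the C57BL/6 strain and carried Notch1-deltaE, an activated form of the receptor Notch1. In the ex vivo experiment, 3 samples received AMD3100, an antagonist of the chemokine receptor CXCR4, and 3 received vehicle. In the tumour experiment, 3 primary tumours lacking the receptor (Cxcr4-/-, here knockout 5, 7 and 8) were set against 3 with intact Cxcr4+/+ (here wild type 1, 2 and 4). For every sample, tumours included, the labels describe cells from spleen grown on OP9, a stromal line from mouse bone marrow, with 5 ng/ml IL-7, so whether the tumours were cultured before extraction is unclear. Not given in the sources used here were the age of the animals and how much AMD3100 was used and for how long. Whether the samples of each group were separate animals or cultures is not stated, so p-values reflect only how far these samples vary, and that variation may be technical.

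Interferons are secreted cytokines that alert cells to infection. Type I interferons bind the receptor pair Ifnar1 and Ifnar2 and, through the kinases Jak1 and Tyk2, lead to a complex with Stat2 and Irf9 that binds the interferon-stimulated response element of its target promoters. Interferon gamma signals through Ifngr1 and Ifngr2 to gamma-activated sites, as in the promoter of Irf1. The targets include enzymes that degrade viral RNA, tethers and nucleotide-depleting enzymes, GTPases that act on parasites and membranes, and sensors of foreign RNA. T cells respond to both kinds of interferon, and activated T cells also make interferon gamma.

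Most promoters below are shown because they hold the core letters of the response element, and that of Irf1 because it holds the gamma-activated core. They come from RefSeq (build GRCm38.p6), matched by symbol for 28 of the 37 members (Oas2, Usp18, Parp9, Parp14, Rtp4, Mx1, Mx2, Dhx58 and Zbp1 were not matched), and run 5′ to 3′ on the strand of the gene. Each line gives 100 bases of the promoter, and capitals mark the response element core, or in Irf1 the gamma-activated core. The core searched was GAAA-NN-GAAA for the response element and TTC-NNN-GAA for the gamma-activated site (N is any base), on both strands, with overlapping matches kept. Isg15, Oas3, Gbp2, Gbp3, Igtp, Bst2 and Stat2 are genes with a response element core whose values are described below, and Irf1 was added after its values were seen.
Isg15 (chr4:156200819-156200918, minus strand): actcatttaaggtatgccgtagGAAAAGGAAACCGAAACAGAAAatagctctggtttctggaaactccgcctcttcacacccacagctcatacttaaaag
Oas3 (chr5:120777660-120777759, minus strand): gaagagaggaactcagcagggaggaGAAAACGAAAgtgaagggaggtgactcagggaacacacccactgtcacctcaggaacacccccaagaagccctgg
Bst2 (chr8:71537557-71537656, minus strand): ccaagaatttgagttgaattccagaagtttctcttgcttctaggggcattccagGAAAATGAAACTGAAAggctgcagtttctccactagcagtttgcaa
Stat2 (chr10:128270248-128270347, plus strand): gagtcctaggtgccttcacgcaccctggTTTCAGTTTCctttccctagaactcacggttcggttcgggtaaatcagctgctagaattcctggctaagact
Gbp2 (chr3:142620563-142620662, plus strand): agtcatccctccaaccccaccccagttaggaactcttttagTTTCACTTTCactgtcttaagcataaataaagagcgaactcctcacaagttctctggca
Gbp3 (chr3:142559944-142560043, plus strand): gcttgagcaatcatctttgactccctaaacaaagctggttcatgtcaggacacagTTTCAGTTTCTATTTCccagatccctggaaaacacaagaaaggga
Igtp (chr11:58199456-58199555, plus strand): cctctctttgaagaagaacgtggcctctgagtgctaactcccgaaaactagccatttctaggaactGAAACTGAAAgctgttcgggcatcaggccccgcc
Irf1 (chr11:53769914-53770013, plus strand): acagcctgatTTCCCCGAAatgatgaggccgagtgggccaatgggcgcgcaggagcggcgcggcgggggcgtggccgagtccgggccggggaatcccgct

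Within 300 bases around the gene start (250 before and 50 after), the response element core stood in 15 of 28 members (53.6%), against 3.99% of the 27025 genes of the same promoter table. In 12 members it lay upstream of the start. The gamma-activated core stood in 8 of 28 members (28.6%), against 9.55% of all genes. In Isg15, which encodes a ubiquitin-like protein, 3 overlapping response element cores ran from position -78. In the guanylate-binding protein gene Gbp3, 2 overlapping cores began at -45 and -39 on the opposite strand, and in Bst2 2 began at -130 and -124. The Oas3 core began at -75, the Gbp2 core at -59 and the Igtp core at -34. The windows of Igtp and Bst2 also held a gamma-activated core, from -45 and -136, which is left in lower case above except where the Bst2 one overlaps its response element core. The windows of Irf7 and Irf9 held neither core. A match describes these letters and is not evidence of binding.

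The targeted gene Cxcr4 was listed at 23.2, 78.9 and 21.9 FPKM (fragments scaled by transcript length and by the library's mapped total) in the knockout tumours and at 155 to 241 FPKM in the wild-type tumours. T cell markers were present in every library (12 of 12 listed, none at 0). Both tables were normalised separately, so tests were run only within a table, on log2(FPKM + 1), which understates the change of low genes. Depth is not recorded. From the steps of low values, vehicle 2 and 3 held 0.908 and 0.756 times the depth of vehicle 1. AMD3100 1 to 3 held 1.06, 1.25 and 1.21 times that depth. By this estimate every AMD3100 library was deeper than every vehicle library, so depth and treatment cannot be told apart ex vivo. Ex vivo, both samples numbered 3 stood apart from the rest: the chemokine receptor gene Ccr9 was listed at 242 and 419 FPKM, against 0.81 to 1.43 in the other 4. The summed stromal markers without Thy1, which T cells also express, were 10.9 and 21.4 FPKM in these samples, against 152 to 199 in the others. Pdgfrb supplied most of that gap, at 4.20 and 11.2 FPKM against 136 to 186, and without it the sums were 6.67 and 10.2 FPKM, against 13.5 to 23.9. Counts and calls from the paired model are therefore given also without this pair. In bulk samples, fewer cells of a type and less RNA per cell cannot be told apart.

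Ex vivo, the interferon response genes stood higher on balance with AMD3100, most in the third pair. Of the 26 members that averaged at least 1 FPKM in the ex vivo table, 24 had a difference above 0 and 2 below, with a median log2 difference of 0.35, against 0.0022 over all 10245 genes tested. Samples with the same number were compared as pairs because they deviated together. With the pair in the model, 5 members rose (Irf7, Irf9, Parp14, Oas3 and Zbp1; 19.2%) and none fell, where 9.96% of all genes were called higher and 9.92% lower (limma, adjusted p under 0.05). Without the pair in the model, limma called no member and 0.127% of all genes (13 of 10245). At an unadjusted p under 0.05 there were 4 members (Irf7, Irf9, Parp14 and Dtx3l; 15.4%), against 21.5% of all genes. One member, Usp18, passed the filter only through an AMD3100 sample, so it had to differ. It is included in the ex vivo counts and medians of members and effectors here and below, except where a filter leaves it out. With a mean of at least 5 FPKM as the filter, which leaves out Usp18 and other low members, 17 of 19 members had a difference above 0. Their median log2 difference was then 0.32.

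Of the tested members, 15 were higher with AMD3100 in all 3 pairs (57.7%, against 30.8% of all genes), and 2, Irf1 and Parp9, were lower in all 3 (7.69%, against 29.4%). In 5 members (Irf7, Irf9, Parp14, Rtp4 and Dtx3l; 19.2%) every AMD3100 sample lay above every vehicle sample, as in 13.1% of all genes. No member had the opposite order, which 15.8% of all genes had. The highest of the 6 values was AMD3100 3 in 18 members (69.2%), against 25.5% of genes. The median log2 difference was 0.14 in the first pair, 0.22 in the second and 0.73 in the third, while over all genes these medians were 0.016, 0.0 and -0.0015. Without AMD3100 3 the members' median was 0.17 (18 above 0 and 7 below), without AMD3100 2 it was 0.52, and without the third pair 0.20 (21 above 0 and 5 below).

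**Figure D1:**
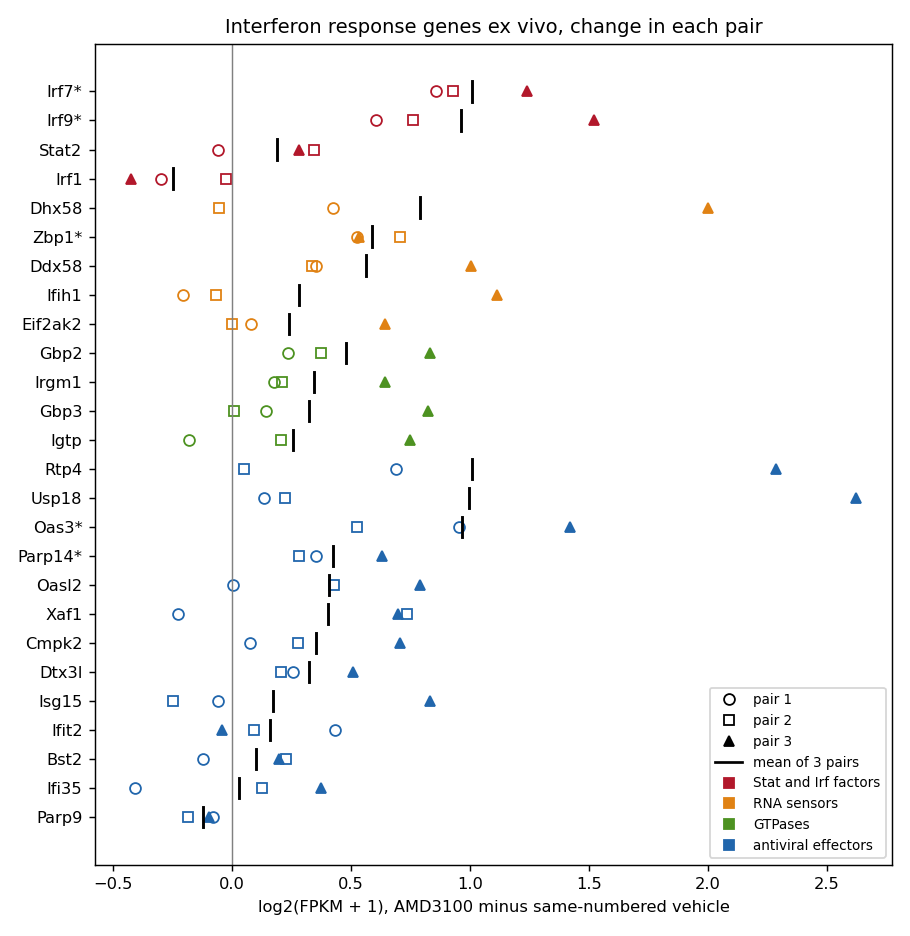
Difference in log2(FPKM + 1) between AMD3100 and the same-numbered vehicle sample (horizontal axis) for the 26 tested members (vertical axis), with 1 symbol per pair, a bar at the mean of 3 pairs, colours for the roles and an asterisk for genes called in the paired model. The filled triangles of the third pair lie farthest right in most genes, and the bars of Irf1 and Parp9 lie left of 0.

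Among the factors, Irf7 and Irf9 rose and Stat2 and Irf1 were not called. Irf7, which drives transcription of type I interferon genes, was listed at 2.10, 2.22 and 3.11 FPKM in vehicle 1 to 3 and at 4.62, 5.14 and 8.72 FPKM in AMD3100 1 to 3. The groups did not overlap, and each AMD3100 sample was above its own vehicle sample (log2 difference 1.01, SE 0.137 in the paired model, adjusted p = 0.0199; 0.104 unpaired). Irf9, the DNA-binding subunit of the complex with Stat2, was listed at 8.98, 8.03 and 5.63 FPKM with vehicle and at 14.2, 14.3 and 18.0 FPKM with AMD3100. Vehicle 3 was the lowest and AMD3100 3 the highest of the 6, and the groups did not overlap (log2 difference 0.96, SE 0.196, adjusted p = 0.0331 paired and 0.071 unpaired). Stat2, the partner of Irf9, was at 7.94, 7.47 and 11.0 FPKM with vehicle and 7.57, 9.75 and 13.6 FPKM with AMD3100. Its groups overlapped (log2 difference 0.19, SE 0.117, adjusted p = 0.293 paired). Irf1, the factor most directly induced by interferon gamma and the highest of the 4 factors per length, went the other way. It was listed at 32.5, 33.2 and 62.5 FPKM with vehicle and at 26.1, 32.6 and 46.3 FPKM with AMD3100, lower in every pair but by little in the second (log2 difference -0.25, SE 0.097, adjusted p = 0.127 paired). Without vehicle 3 the Irf1 difference was 0.05, and without AMD3100 3 the Stat2 difference was -0.01.

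**Figure D2:**
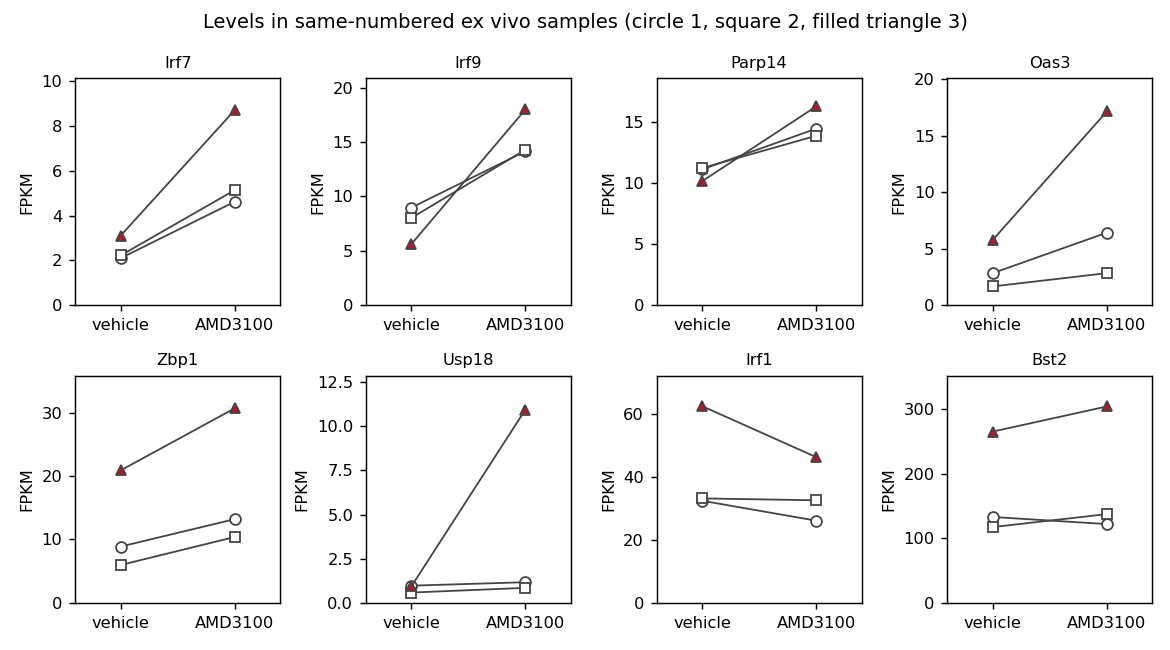
Level in FPKM (vertical axes, from 0) of 8 members in vehicle and AMD3100 samples, with lines joining same-numbered samples (circle 1, square 2, filled triangle 3). All 3 lines rise for Irf7, Irf9, Parp14, Oas3 and Zbp1, the Usp18 line is steep in sample 3 alone, and the lines of Irf1 slope downward.

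Of the 13 effectors tested (Usp18 included), Parp14 and Oas3 rose, none fell, and the median log2 difference was 0.35 (from -0.12 to 1.01). Parp14, an ADP-ribosyltransferase, was listed at 11.1, 11.2 and 10.2 FPKM with vehicle and at 14.5, 13.9 and 16.3 FPKM with AMD3100. The groups did not overlap and each was narrow (log2 difference 0.42, SE 0.104, adjusted p = 0.0487 paired and 0.096 unpaired). Oas3, an oligoadenylate synthetase whose product activates RNA cleavage, was at 2.84, 1.66 and 5.78 FPKM with vehicle and at 6.42, 2.84 and 17.1 FPKM with AMD3100. Here the groups overlapped, because samples numbered 3 were high and those numbered 2 low in both groups, and each pair rose (log2 difference 0.97, SE 0.195, adjusted p = 0.0324 paired and 0.450 unpaired). The single response element core of Oas3 is printed above.

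Rtp4 and Usp18 had mean differences close to that of Irf7 but were not called. Rtp4, an interferon-induced chaperone of membrane receptors, was listed at 6.51, 6.72 and 4.57 FPKM with vehicle and at 11.1, 6.99 and 26.2 FPKM with AMD3100. The groups did not overlap, but the second pair differed by little and the third by much (log2 difference 1.01, adjusted p = 0.150 paired). Usp18, a protease that removes Isg15 from proteins and dampens signalling at Ifnar2, was at 0.977, 0.587 and 0.939 FPKM with vehicle and 1.17, 0.853 and 10.9 FPKM with AMD3100. Only AMD3100 3 was high: the log2 differences were 0.14, 0.22 and 2.62 in the 3 pairs (adjusted p = 0.231 paired). Oasl2, a relative of the oligoadenylate synthetases, was at 1.42, 2.46 and 0.125 FPKM with vehicle and 1.43, 3.65 and 0.942 FPKM with AMD3100. Its groups overlapped, and samples numbered 3 were the lowest (log2 difference 0.41, adjusted p = 0.219 paired). Its difference was -0.05 without vehicle 3. Cmpk2, a mitochondrial nucleotide kinase, was at 1.91, 1.34 and 2.22 FPKM with vehicle and 2.06, 1.83 and 4.24 FPKM with AMD3100, again highest in AMD3100 3 and overlapping elsewhere (log2 difference 0.35, adjusted p = 0.217 paired).

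Dtx3l and Parp9 encode partners in a single ubiquitin ligase complex, and their differences had opposite signs. Their values were singled out after they were seen. Dtx3l, the ligase, was listed at 38.9, 41.3 and 32.5 FPKM with vehicle and at 46.7, 47.8 and 46.7 FPKM with AMD3100, without overlap (log2 difference 0.32, SE 0.086, adjusted p = 0.0573 paired). Parp9 was at 24.3, 22.8 and 24.0 FPKM with vehicle and 22.9, 19.9 and 22.4 FPKM with AMD3100, lower in each pair but not called (log2 difference -0.12, SE 0.072, adjusted p = 0.268 paired). Bst2, a membrane protein that tethers budding virions, was the highest effector per length, at 133, 118 and 266 FPKM with vehicle and 122, 138 and 305 FPKM with AMD3100. It followed the sample number more than the treatment (log2 difference 0.10, SE 0.093 paired), and without AMD3100 3 its difference was -0.31. Isg15, with 3 cores in its promoter, was at 17.4, 17.2 and 14.0 FPKM with vehicle and 16.6, 14.3 and 25.7 FPKM with AMD3100, above its vehicle sample in the third pair only (log2 difference 0.17, adjusted p = 0.599 paired).

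No GTPase was called, and the 4 tested had log2 differences of 0.26 to 0.48 (median 0.33). Gbp2, which coats the vacuoles of intracellular parasites, was listed at 9.21, 5.93 and 7.92 FPKM with vehicle and at 11.0, 7.96 and 14.9 FPKM with AMD3100. Each pair was higher, while the groups overlapped (log2 difference 0.48, SE 0.143, adjusted p = 0.074 paired). Igtp, an immunity-related GTPase of internal membranes and the highest of the group per length, was at 34.4, 16.6 and 31.7 FPKM with vehicle and 30.2, 19.3 and 54.0 FPKM with AMD3100. It was above its vehicle sample in pairs 2 and 3 and below it in the first (log2 difference 0.26, adjusted p = 0.345 paired), and its difference was -0.12 without AMD3100 3. Mx1, a dynamin-like GTPase against influenza viruses, was listed at 0 in all 6 libraries, and Mx2 did not exceed 0.311 FPKM.

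Among the 5 sensors, Zbp1 rose and the median log2 difference was 0.56 (from 0.24 to 0.79). Zbp1, which binds Z-form nucleic acid and can start necroptosis, was listed at 8.89, 5.98 and 20.9 FPKM with vehicle and at 13.2, 10.4 and 30.7 FPKM with AMD3100. Samples numbered 3 were high in both groups, so the groups overlapped, and the 3 paired differences were nearly equal (log2 difference 0.59, SE 0.087, adjusted p = 0.0208 paired and 0.615 unpaired). Ddx58, which encodes the RNA sensor RIG-I, was at 5.90, 5.34 and 8.42 FPKM with vehicle and 7.80, 7.00 and 17.9 FPKM with AMD3100, higher in each pair and highest in AMD3100 3 (log2 difference 0.56, SE 0.166, adjusted p = 0.072 paired). Ifih1, Dhx58 and Eif2ak2 had log2 differences of 0.28, 0.79 and 0.24, and none was called. All 3 differed most in the third pair. Across the 3 pairs Ifih1 differed by -0.21, -0.07 and 1.11, and Dhx58 by 0.42, -0.06 and 2.00. Eif2ak2 differed by 0.078, 0.00053 and 0.64.

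The paired calls depended on which pair was left out. Without the third pair Irf7 (log2 difference 0.89, adjusted p = 0.0368), Irf9 (0.68, adjusted p = 0.0343) and Zbp1 (0.61, adjusted p = 0.0423) kept their calls, and Oas3 (adjusted p = 0.067) and Parp14 (adjusted p = 0.102) lost theirs. The 3 kept calls, of 26 members, were all higher, where 5.7% of all genes were called higher and 6.08% lower. Without the first or the second pair no member was called, among 9 and 7 genes called in all.

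The other 10 members lay below the filter ex vivo (Mx1, Mx2, Ifi44, Ifit1, Ifit3, Oas1a, Oas2, Oasl1, Rsad2 and Samhd1), and none exceeded 2.24 FPKM in any library. Rsad2, or viperin, which makes a chain-terminating nucleotide, was listed at 0.155, 0.171 and 0.051 FPKM with vehicle and 0.622, 0.218 and 0.643 FPKM with AMD3100. Ifit1, which binds foreign RNA ends, was at 0.457, 0.126 and 0.604 FPKM with vehicle and 0.862, 0.686 and 1.23 FPKM with AMD3100. Both were above vehicle in each pair at levels of at most 1.23 FPKM, and neither was tested. Rsad2 and Ifit1 were singled out after their values were seen. Not all 10 went this way: Oas1a averaged 0.680 FPKM with vehicle and 0.488 FPKM with AMD3100, and Ifit3 0.188 and 0.133 FPKM. Without a filter, 31 of 35 members had a difference above 0 and 4 below.

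Upstream of these genes, the receptor chains of type I interferon rose in the paired model, as did the feedback inhibitor Socs1. As for the members, the shares to read these counts against are the 9.96% of all genes called higher and 9.92% called lower. Without the pair in the model none of these genes was called (adjusted p = 0.458 for Ifnar2, 0.480 for Ifnar1, 0.061 for Socs1 and 0.054 for Irf2). Of 5 receptor genes tested, Ifnar2 (20.6, 18.8 and 41.0 FPKM with vehicle against 30.1, 30.9 and 59.3 FPKM with AMD3100; log2 difference 0.58, adjusted p = 0.0197) and Ifnar1 (log2 difference 0.37, adjusted p = 0.0408) rose and none fell. Ifngr1 and Ifngr2 had log2 differences of 0.60 (adjusted p = 0.0526) and 0.02. Of 9 Jak kinases and other Stat and Irf factors, 1 rose and none fell: Irf2, which competes with Irf1 for its sites (log2 difference 0.61, adjusted p = 0.0199). Jak1 (0.23, adjusted p = 0.0538) and Tyk2 (-0.03) were not called. Of 10 inhibitors, 2 rose and 1 fell. Socs1, which blocks Jak kinases, was listed at 57.4, 83.0 and 62.5 FPKM with vehicle and at 126, 208 and 200.3 FPKM with AMD3100. Every AMD3100 sample was above every vehicle sample (log2 difference 1.37, SE 0.117, adjusted p = 0.019). Pias1, a SUMO ligase, rose by 0.34, and the phosphatase gene Ptpn6 fell by 0.67 on the log2 scale. Pias1, and Ticam1 below, were named after their values were seen.

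Of 48 other interferon-induced entries, 8 rose (16.7%, against 9.96% of all genes) and 3 fell (6.25%, against 9.92%) in the paired model, with a median log2 difference of 0.25. Those with the smallest p among the rises were Gbp9 (0.77), Ifitm1 (0.80), Trim30a (0.60) and Slfn5 (0.73), and Pnpt1 fell by 0.58. Of 13 adaptors and kinases of nucleic acid sensing, Ticam1 rose (0.66) and Ifi204, a DNA sensor, fell by 1.00. Ifi204 was listed at 191, 171 and 7.21 FPKM with vehicle and 92.4, 110 and 2.26 FPKM with AMD3100, so both samples numbered 3 were far below the others in each group. Of 17 listed interferon genes, 14 were at 0 in all ex vivo libraries, and the other 3 (Ifnab, Ifng and Ifnz) did not exceed 0.555 FPKM.

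Without the third pair, 5.7% of all genes were called higher and 6.08% lower in the paired model. Ifnar2 (log2 difference 0.61, adjusted p = 0.0317), Socs1 (1.22, adjusted p = 0.0177), Irf2 (0.55, adjusted p = 0.0365), Ptpn6 (adjusted p = 0.0284) and Ifi204 (adjusted p = 0.0308) kept their calls. Ifnar1 (adjusted p = 0.0595), Pias1 (adjusted p = 0.082) and Ticam1 (adjusted p = 0.080) lost theirs. Of the 48 other interferon-induced entries, 3 were then called higher and 1 lower, and their median log2 difference was 0.04. Without the first or the second pair only 9 and 7 genes were called in all. The pathway genes were not looked up in those fits.

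Markers of other cells were examined beside the ex vivo differences. The macrophage list (12 genes listed, 6 of them at 0 in all libraries, C1qa, C1qb, C1qc, Cd5l, Csf1r and Fcgr1) summed to 1.89 to 2.60 FPKM with vehicle and 2.59 to 2.92 FPKM with AMD3100. The dendritic list (8 genes listed, with Siglech, Itgax and Xcr1 at 0 in all) summed to 124 to 517 FPKM with vehicle and 138 to 738 FPKM with AMD3100. Bst2, itself a member, and Ccr9 carried most of it, and without them the sums were 4.84 to 12.2 FPKM and 5.26 to 14.7 FPKM. The NK and cytotoxic list summed to 1290 to 2903 FPKM with vehicle and 1543 to 3690 FPKM with AMD3100, with Ncr1 and Klrk1 at 0 in all. Its granzyme gene Gzma, at 1240 to 2854 FPKM and 1421 to 3381 FPKM, supplied nearly all of it. Without Gzma the list summed to 29.8 to 50.2 FPKM with vehicle and 75.1 to 309 FPKM with AMD3100, and the groups did not overlap. Within it Nkg7, a granule protein gene of cytotoxic cells, was at 28.3, 41.1 and 42.3 FPKM with vehicle and at 71.0, 98.4 and 264 FPKM with AMD3100, highest in AMD3100 3 like most members. The T cell list summed to 3480 to 3828 FPKM with vehicle and 2975 to 3419 FPKM with AMD3100, also without overlap. The part of any of these cells in the result was not tested.

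In the tumours, the interferon response genes varied widely between tumours of one genotype, and no member was called. Of 34 members tested, 30 had a log2 difference (knockout minus wild type) above 0 and 4 below (Gbp3, Ifi35, Oas1a and Eif2ak2), with a median of 0.37, against -0.026 over all 10741 genes. Limma called 0.0372% of genes (4) and no member. At an unadjusted p under 0.05 there was 1 member (Gbp3; 2.94%), against 4.28% of genes. In 4 members (Samhd1, Rtp4, Parp14 and Dhx58; 11.8%) every knockout tumour lay above every wild-type tumour, as in 4.01% of genes, and in Gbp3 (2.94%) every one lay below, as in 5.2%. The median rested on few tumours: it was 0.055 without wild type 1 (18 above 0 and 16 below), 0.10 without knockout 5 (20 above and 14 below) and 0.23 without wild type 2.

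**Figure D3:**
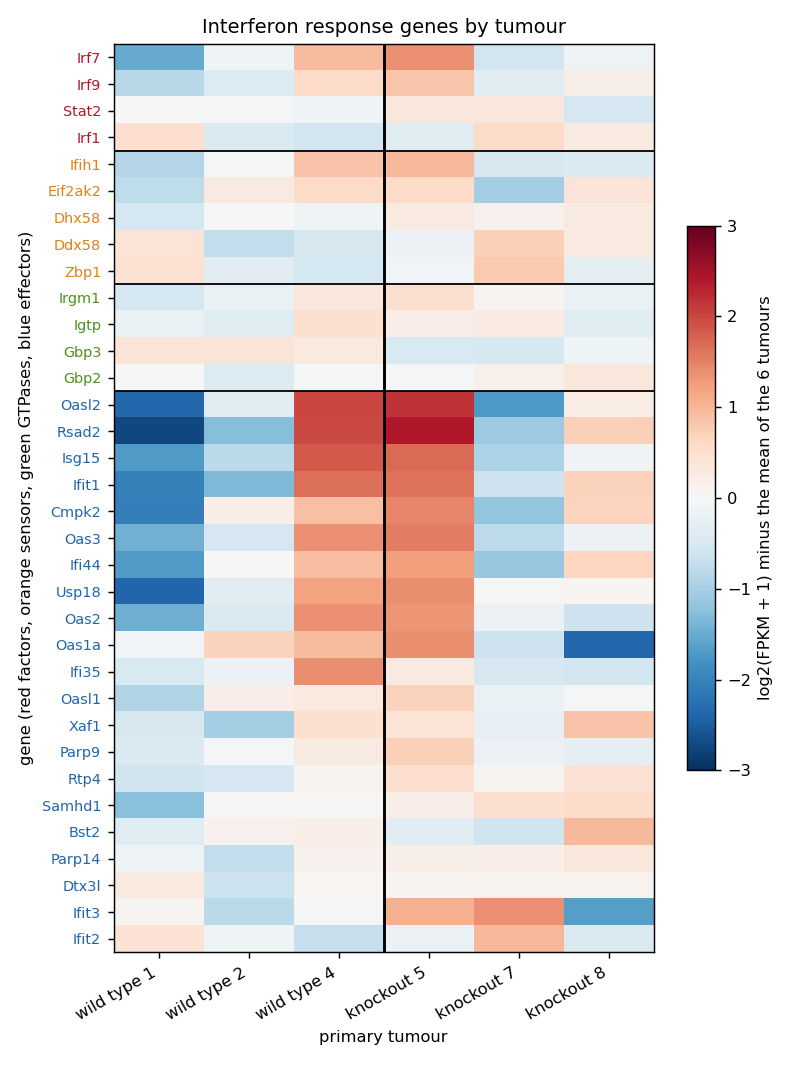
Level of the 34 tested members (vertical axis, by role) in each of the 6 primary tumours (horizontal axis), as log2(FPKM + 1) minus the gene's mean over the 6 tumours (colour, red above and blue below the mean). Wild type 4 and knockout 5 are red and wild type 1 is blue in most effectors, on both sides of the line between the genotypes.

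Wild type 4 and knockout 5 held the 2 highest values in 18 of 34 members (52.9%), against 14.2% of all genes. Wild type 1 held the lowest value in 18 members (52.9%), against 20.1% of genes. The highest tumour was at least 10 times the lowest in 9 of 34 members, against 9.74% of genes (1046 of 10741). A lowest value of 0 gives no ratio, and only 9369 of these genes had one. Genes without a ratio, Ifit3 among the members, were counted as not reaching 10 times, so 9.74% understates the share of genes. The median ratio of highest to lowest was 3.33 over the 33 members with a ratio and 2.88 over the 9369 genes. Rsad2 was listed at 20.6, 58.0 and 563 FPKM in wild type 1, 2 and 4 and at 762, 66.6 and 233 FPKM in knockout 5, 7 and 8. Thus 1 tumour of each genotype stood above the other 4, and the groups overlapped (log2 difference 1.36, SE 1.30, adjusted p = 0.986). Isg15, the highest effector per length, was at 61.7, 116 and 731 FPKM in wild type and 665, 105 and 188 FPKM in knockout, with the same 2 tumours on top (log2 difference 0.44, SE 1.01, adjusted p = 0.995). Oasl2 was at 6.80, 30.7 and 158 FPKM in wild type and 179, 11.1 and 45.7 FPKM in knockout, and Ifit1 at 9.78, 16.4 and 137 FPKM and at 134, 27.4 and 70.0 FPKM. The order of the 6 tumours was nearly shared by these effectors, with wild type 1 lowest in each. Rsad2, Oasl2 and Ifit1 were singled out after their values were seen.

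Irf7 and Irf9 had the same tumours on top as these effectors. Irf7, the highest factor per length in the tumours, was listed at 23.8, 63.3 and 135 FPKM in wild type and 182, 46.5 and 62.6 FPKM in knockout, and Irf9 at 30.6, 41.9 and 82.9 FPKM and at 99.7, 44.1 and 63.0 FPKM. In both, wild type 4 and knockout 5 were highest, the groups overlapped, and the log2 difference was 0.45 (SE 0.724 and 0.459). Irf1 had another order: 112, 58.2 and 52.4 FPKM in wild type and 60.4, 118 and 95.4 FPKM in knockout, so wild type 1 and knockout 7 were highest and wild type 4 lowest (log2 difference 0.33, SE 0.400). Stat2 varied little, at 13.9, 13.4 and 12.5 FPKM in wild type and 17.7, 17.8 and 9.55 FPKM in knockout (log2 difference 0.12, SE 0.344). The adjusted p of each of the 4 factors was 0.986 or above. Without wild type 1 the Irf7 difference was -0.19.

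Zbp1, Ddx58, Dtx3l and Ifit2 shared with Irf1 the pair of highest tumours, wild type 1 and knockout 7, and these 5 members were 14.7% of those tested, against 20.3% of all genes. Zbp1, the highest sensor per length, was at 93.1, 53.2 and 46.9 FPKM in wild type and 64.0, 117 and 54.8 FPKM in knockout (log2 difference 0.27, SE 0.402). Ddx58 was at 31.0, 13.6 and 16.3 FPKM in wild type and 20.4, 39.1 and 28.1 FPKM in knockout (log2 difference 0.54, SE 0.406), and Ifit2, a relative of Ifit1, at 15.5, 10.0 and 6.48 FPKM and at 9.72, 23.4 and 8.01 FPKM. The groups of each overlapped. Thus Ifit1 and Ifit2 had different tumours on top. Ddx58 and Ifit2 were singled out after their values were seen.

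**Figure D4:**
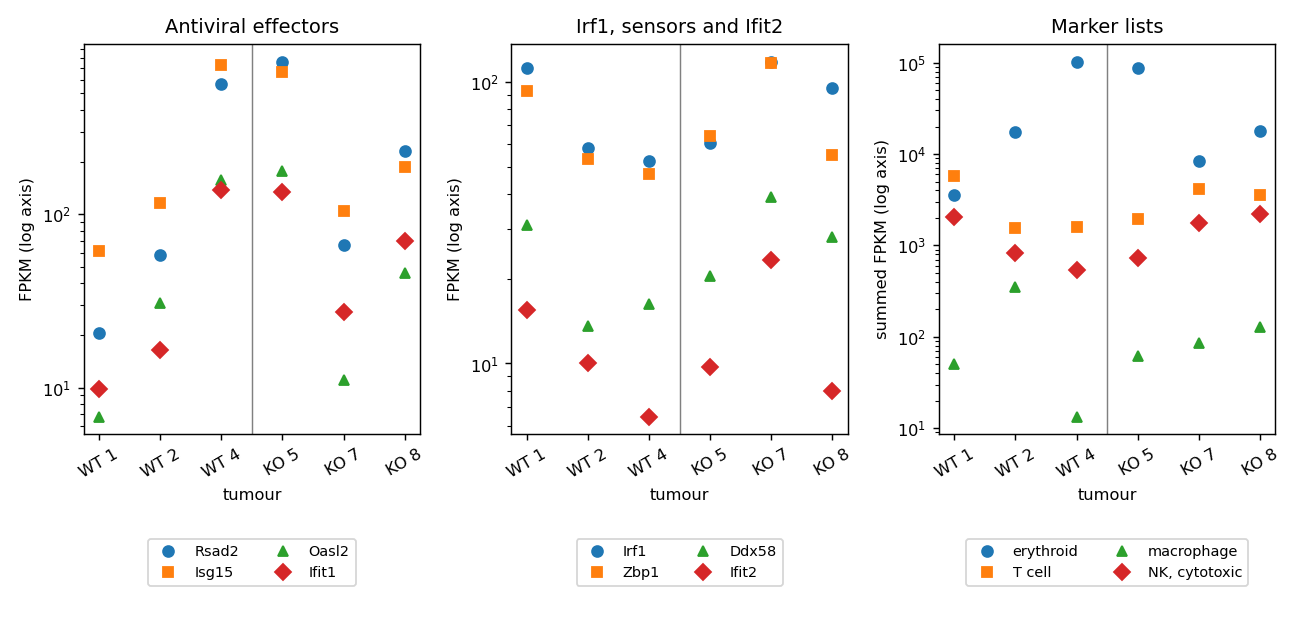
Levels in FPKM on log axes in each tumour (WT wild type, KO knockout) of 4 effectors (left), of Irf1, Zbp1, Ddx58 and Ifit2 (middle), and summed FPKM of marker lists of other cells and T cells (right). WT 4 and KO 5 are highest in the left panel and for erythroid markers, and WT 1 and KO 7 are highest in the middle panel and for T cell markers. Rsad2, Oasl2, Ifit1, Ddx58 and Ifit2 were chosen after their values were seen. WT 4 and KO 5 were the 2 highest in 52.9% of tested members, against 14.2% of all genes. WT 1 and KO 7 were so in 14.7%, against 20.3%.

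Markers of other cells differed between the same tumours. The erythroid list (7 genes listed, none at 0 throughout) summed to 3543, 17260 and 102554 FPKM in wild type 1, 2 and 4 and to 87160, 8504 and 18051 FPKM in knockout 5, 7 and 8. Haemoglobin genes took 23.0% of all FPKM in wild type 4 and 20.4% in knockout 5, against 1.29% to 6.55% in the other 4. The T cell list summed to 5799, 1557 and 1579 FPKM in wild type and to 1934, 4129 and 3575 FPKM in knockout, highest in wild type 1 and knockout 7. The macrophage list summed to 50.3, 351 and 13.4 FPKM in wild type and to 61.8, 84.5 and 127 FPKM in knockout. Neutrophil markers summed to 219, 3314 and 5.68 FPKM in wild type and to 70.3, 351 and 171 FPKM in knockout. The part of erythroid cells, T cells, macrophages, neutrophils and depth in these differences was not tested.

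The genotypes did not overlap in 4 members that were higher and 1 that was lower in the knockout tumours, and none was called. Samhd1, which hydrolyses deoxynucleotides, was listed at 36.2, 87.0 and 90.6 FPKM in wild type and at 101, 123 and 129 FPKM in knockout. Wild type 1 was far below the rest (log2 difference 0.82, SE 0.398, adjusted p = 0.986). Rtp4 was at 21.0, 22.3 and 34.0 FPKM in wild type and 46.2, 34.2 and 43.4 FPKM in knockout, nearly touching at wild type 4 and knockout 7 (log2 difference 0.68, SE 0.302, adjusted p = 0.986). Parp14 was at 45.7, 29.6 and 54.9 FPKM in wild type and 56.9, 57.8 and 63.7 FPKM in knockout (log2 difference 0.49, SE 0.303), and Dhx58, the RNA helicase LGP2, at 8.32, 12.4 and 11.2 FPKM and at 15.1, 13.5 and 15.1 FPKM (log2 difference 0.43, SE 0.305). Gbp3 was at 17.0, 17.1 and 15.9 FPKM in wild type and 9.10, 8.92 and 11.6 FPKM in knockout, with narrow groups (log2 difference -0.71, SE 0.291, unadjusted p = 0.044, adjusted p = 0.986). The other guanylate-binding protein, Gbp2, had a log2 difference of 0.30, and Igtp, the highest GTPase per length (103, 90.8 and 164 FPKM in wild type, 136, 140 and 91.2 FPKM in knockout), one of 0.06. By role, the median log2 difference was 0.39 for the factors, 0.45 for the effectors, 0.16 for the GTPases and 0.27 for the sensors.

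The joined entry of Ifi47 and Olfr56 was listed at 78.0, 74.4 and 84.1 FPKM in wild type and at 104, 172 and 120 FPKM in knockout, without overlap (log2 difference 0.71, unadjusted p = 0.040, adjusted p = 0.986). Ex vivo it was at 31.3, 17.7 and 33.9 FPKM with vehicle and 36.6, 24.8 and 38.1 FPKM with AMD3100, higher in each pair (log2 difference 0.28, adjusted p = 0.081 paired). The share of Ifi47, an immunity-related GTPase, in these values is not known.

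No other pathway gene was called in the tumours. Of the 17 listed interferon genes only Ifng, which encodes interferon gamma, was above 0, at 8.78, 8.33 and 3.90 FPKM in wild type and 10.5, 13.4 and 23.5 FPKM in knockout. Every knockout tumour was above every wild-type tumour (log2 difference 1.06, SE 0.448, unadjusted p = 0.0488, adjusted p = 0.986). The NK and cytotoxic list, whose cells also make interferon gamma, summed to 2038, 835 and 532 FPKM in wild type and 733, 1747 and 2228 FPKM in knockout, and its part in the Ifng values was not tested. Jak1, Tyk2, Ifnar1, Ifnar2, Ifngr1, Ifngr2 and Socs1 had log2 differences of 0.46, 0.44, -0.07, -0.28, -0.49, 0.40 and 0.09. Of 54 other interferon-induced entries, 40 had a log2 difference above 0 and 14 below (median 0.24). In 6 of them (11.1%, against 4.01% of all genes) every knockout tumour was above every wild-type tumour, with Slfn1 (1.54) and Ifi27l2a (1.497) the largest, both named after their values were seen, and in none was it below, against 5.2% of all genes.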

How the data were processed

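The deposited values are FPKM per gene, made by the authors with CASAVA and TopHat on build mm9, per the submitters' processing notes. Not given in the sources used here are the program and annotation behind the FPKM values. Per the labels' protocols, libraries were poly-A selected and strand-specific, with single reads of 50 bases. Gapdh, which every cell uses, is at or close to 0 throughout, so a 0 can be a failed estimate. From these values log2(FPKM + 1) was computed for genes that averaged 1 FPKM or more in the table concerned. Each comparison was fitted over all these genes with limma 3.58.1 in R 4.3.3 (eBayes with a mean trend, two-sided, Benjamini-Hochberg, call at an adjusted p under 0.05), after the fit was tested on simulated data. An exact permutation test of 3 against 3 cannot give a p under 0.1.

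The primary design had no replicate block. Same-numbered ex vivo samples correlated at 0.467, 0.579 and 0.619 in their deviations from the group means, against -0.473 to 0.0455 for other numbers, so the block is reported beside it. Because deviations cancel within a group, positive correlations for shared numbers push the others down, so part of this contrast is built in. The pairing rests on the values and the shared numbers, whose meaning no label gives. Alternatives were other pseudocounts, filters, scalings (median-of-ratios, TMM, quantile), no trend, leaving out libraries or pairs, and, added after seeing the data, a transcript length correction (26 of 26 members and 93.3% of genes had a length), the pathway genes without the third pair, and marker sums without their highest genes. Values per sample are given for Irf1, Irf7, Irf9, Stat2, called members, up to 6 further members per comparison with the largest difference and separate groups (ex vivo, all pairs in one direction), and the highest member of each role. Of other pathway genes, Jak1, Tyk2, the receptors, Socs1, ligands above 0 and up to 10 called genes are named. Members and lists were chosen with earlier results of these data known. One gene of the pathway is not reported here.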

Additional observations from a re-analysis of the deposited data

Results flagged for a closer look

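Gbp3 had differences of opposite sign in the 2 experiments: its log2 difference was 0.324 with AMD3100 (adjusted p = 0.260 in limma's paired model), above vehicle in 3 of 3 pairs but with overlapping groups and 3.90 against 3.93 FPKM in the second pair, and -0.710 in Cxcr4-/- against Cxcr4+/+ tumours, where every knockout tumour was below every wild-type tumour (adjusted p = 0.986). Neither difference was called, the tables were normalised separately, and the difference between the experiments was not tested.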

How the results depend on the processing

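Ex vivo, 13 genes were called. The count was 8 without a filter, 188 with a mean of at least 5 FPKM, 89 with median-of-ratios scaling (24 higher and 65 lower, against 5 and 8 as deposited), 3 with quantile normalisation (2 higher and 1 lower) and 1 without a trend. With the replicate block it was 2036, or 2029, 2039, 1914 and 1221 with the block and median-of-ratios, TMM, quantile or transcript length correction, and 3 to 1207 when a library or pair was left out. Members called were 0 without the block in every setting, 5 with it, 5 with median-of-ratios, and 4 with TMM, quantile or length correction, each without Parp14; they were 0 to 3 when a library or pair was left out. The members' median stayed between 0.17 and 0.52. In the tumours 4 genes were called, 0 without a filter and 0 to 4 when a tumour was left out; no member was called in any setting, and the median ranged from 0.055 to 0.49. No paired analysis was possible because tumours of different genotype share no numbers. Ifit3 in the tumours went from 0.53 to -0.040 with a pseudocount of 0.1. When a library or a pair was left out, the log2 difference changed sign, with its range, ex vivo in Bst2 (-0.31 to 0.46), Ifi35 (-0.14 to 0.25), Ifih1 (-0.30 to 0.65), Igtp (-0.12 to 0.60), Irf1 (-0.47 to 0.052), Isg15 (-0.16 to 0.38), Oasl2 (-0.049 to 0.76) and Stat2 (-0.013 to 0.37). In the tumours it did in Bst2 (-0.46 to 0.33), Cmpk2 (-0.22 to 1.39), Dtx3l (-0.083 to 0.38), Eif2ak2 (-0.45 to 0.45), Ifi35 (-0.86 to 0.066), Ifi44 (-0.22 to 1.20), Ifih1 (-0.44 to 0.48), Ifit2 (-0.17 to 0.55), Ifit3 (-0.023 to 1.496), Igtp (-0.11 to 0.31), Irf7 (-0.19 to 1.04), Isg15 (-0.30 to 1.47), Oas2 (-0.29 to 1.13), Oas3 (-0.29 to 1.16), Oasl1 (-0.10 to 0.49), Oasl2 (-0.61 to 1.57), Parp9 (-0.15 to 0.35), Stat2 (-0.023 to 0.39) and Zbp1 (-0.054 to 0.56). None of these differences was called in the comparison where its sign changed; the cause of each change was not tested. Depth is not recorded, so the precision of low values is unknown.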
